A study of Mus musculus with 6 samples.

Results

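The genes of cholesterol synthesis, uptake and efflux were examined in the subventricular zone (SVZ), the stem cell niche along the lateral ventricle, after experimental stroke. They are a list of 33 genes chosen by pathway, and 30 of them were measured among the 18193 genes on the arrays. A gene counted as measured where the array annotation gave a probe set exactly 1 symbol equal to the listed one, and where it had several, the one with the highest mean on the 6 arrays was used. Acat2, Nr1h2 and Soat1 had no such probe set and are not analysed here. Biotin-labelled total RNA was hybridised to 6 one-colour arrays, all from adult male C57BL/6 mice carrying no transgene or drug treatment that the labels name. The MCAO group (3 arrays) had its middle cerebral artery occluded, which cuts the blood supply of striatum and lateral cortex, and the SVZ was taken on the injured side at 48 h. The sham group (3 arrays) had sham surgery and was sampled at the same 48 h. The labels name the extracted SVZ as the material but also speak of isolated cells, and the values cannot tell these apart. They do not say whether each array held 1 mouse or a pool, so p-values cover only the spread between these samples, whose source may be technical, and in whole tissue fewer cells of a type and less RNA per cell cannot be told apart.

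Brain cholesterol is made locally, because lipoproteins of the blood do not cross an intact blood-brain barrier. Acetyl-CoA is built up to mevalonate and farnesyl pyrophosphate, then to squalene, lanosterol and finally cholesterol, with astrocytes and myelinating oligodendrocytes among the main producers. Low sterol in the endoplasmic reticulum lets SCAP carry SREBP transcription factors to the Golgi for activation, and INSIG proteins hold the complex back when sterol is plentiful. Excess cholesterol raises oxysterols, which activate the liver X receptors (LXR) and through them the exporters ABCA1 and ABCG1, and neurons dispose of cholesterol by converting it to 24S-hydroxycholesterol with CYP46A1.

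No cholesterol gene passed the test between MCAO and sham. In limma, with p-values adjusted over all genes by Benjamini-Hochberg, 0 of 30 passed at an adjusted p of 0.05 in either direction, where 1.12% of all genes were called higher in MCAO and 0.0165% lower. At an unadjusted p under 0.05, 4 of the 30 were higher and 0 lower, against 6.32% and 2.46% of all genes. These were Sqle, Cyp51, Tm7sf2 and Abca1, and they were also the genes whose 3 MCAO values all lay above the 3 sham values (4 of 30, or 13.3%, against 8.43% of all genes); 0 of 30 had all MCAO values below, against 5.37%. The median difference (MCAO minus sham) over the 30 was 0.075 log2, with a range from −0.19 for Cyp46a1 to 0.60 for Abca1, while the median over all genes was −0.0064. Higher in MCAO were 22 of the 30 on the quantile-normalised values used here, against 47.7% of all genes. The count was 25 on the values as deposited and 18 to 25 when single arrays were left out. The median over all genes moved too, to 0.00716 on the values as deposited and to between −0.0168 and 0.00872 with single arrays left out.

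**Figure D1:**
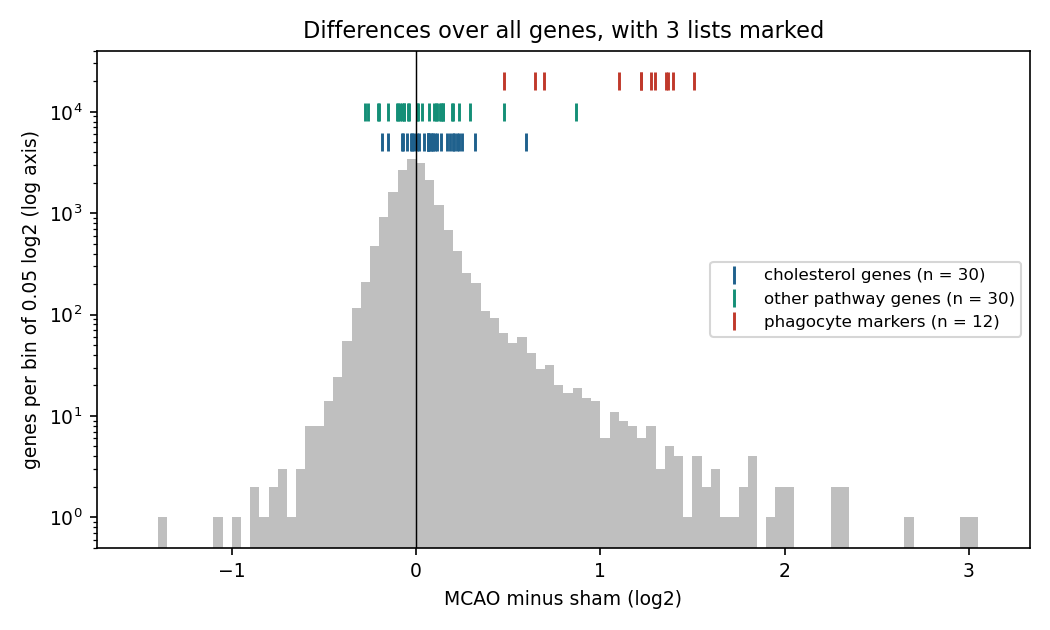
Differences between MCAO and sham (horizontal axis, log2) for all 18193 genes as grey bars (vertical axis, genes per bin, log scale), with ticks for the 30 cholesterol genes, 30 other pathway genes and 12 phagocyte markers. The cholesterol genes lie between −0.19 and 0.60, while the phagocyte markers lie between 0.48 and 1.51.

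The sample numbers 1 to 3, which the labels give in both groups, mattered for these genes. Same-numbered MCAO and sham arrays deviated from their group means in the same way across the 30 genes, with correlations of 0.91, 0.81 and 0.80. Across all genes, which are not independent replicates, the correlations were 0.77, 0.44 and 0.48. Arrays numbered 2 and 3 deviated partly alike too. Across the 30 genes MCAO 3 with sham 2 gave 0.52 and MCAO 2 with sham 3 gave 0.33. An array numbered 1 with one of another number gave −0.85 to −0.65. Deviations from the mean of 3 arrays sum to 0 within a group, so positive correlations at equal numbers bring negative ones elsewhere on balance. The difference was also taken within same-numbered samples. In limma with the sample number as a block, 2 of 30 passed, both higher in MCAO (6.67%, against 4.82% of all genes), and 0 of 30 passed lower (against 1.3%). The 2 genes were Abca1 and Sqle. MCAO was higher within all 3 pairs for 12 of the 30 (40%, against 20% of all genes) and lower within all 3 for 3 of them (against 19.9%). A missed threshold does not show equal levels, so the 95% intervals of the differences are given. They lay inside a 1.5-fold change in both directions for 25 of the 30 genes without the block and for 29 with it, Abca1 being the exception in both fits.

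**Figure D2:**
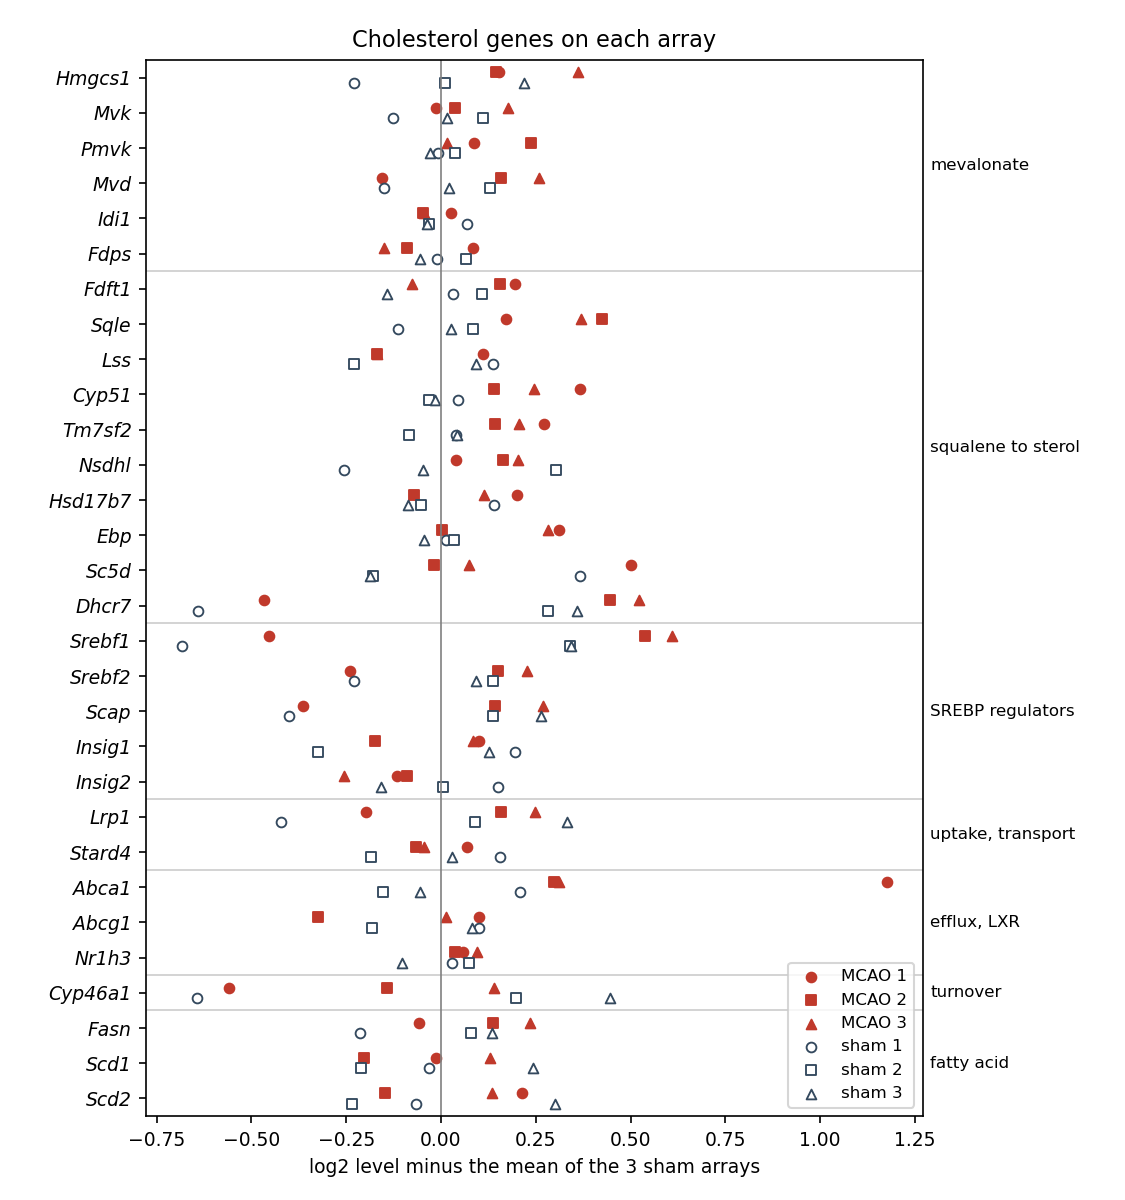
Level of each cholesterol gene on each array as a difference from the mean of the 3 sham arrays (horizontal axis, log2); filled red symbols are MCAO and open symbols sham, with circles, squares and triangles for samples 1, 2 and 3. Only for Sqle, Cyp51, Tm7sf2 and Abca1 do all 3 MCAO values lie above all 3 sham values, and both circles lie far left for Dhcr7, Srebf1, Scap and Cyp46a1.

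The mevalonate branch differed little between the groups. Of its 6 measured enzymes 4 were higher in MCAO and 2 lower, and 0 passed with or without the block (median 0.078 log2). Hmgcs1, the cytosolic HMG-CoA synthase that condenses acetyl-CoA with acetoacetyl-CoA, read 11.31, 11.31 and 11.52 log2 on MCAO 1, 2 and 3 and 10.93, 11.17 and 11.38 on sham 1, 2 and 3. Sham 3 stood above MCAO 1 and MCAO 2, so the groups overlapped, although MCAO was higher within each pair, by 0.38, 0.14 and 0.14. The difference was 0.22 ± 0.12 (SE, n = 3 per group; adjusted p = 0.754), and 0.22 ± 0.075 with the block (adjusted p = 0.134). Of its 4 other probe sets 3 read 0.18 to 0.19 higher and the dimmest read −0.10.

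The kinases and the decarboxylase that turn mevalonate into isopentenyl pyrophosphate were each slightly higher without passing. Mvk, mevalonate kinase, read 0.067 higher, Pmvk, phosphomevalonate kinase, 0.11 and Mvd, the decarboxylase, 0.088, with adjusted p between 0.861 and 0.960. Pmvk was higher in all 3 pairs (0.095, 0.20 and 0.045), while Mvk and Mvd were higher in 2 of 3. Idi1, the isomerase of the isoprenoid units, read 8.61, 8.53 and 8.54 in MCAO and 8.65, 8.55 and 8.54 in sham, a difference of −0.021 with a 95% interval from −0.19 to 0.15, and on the values as deposited it read 0.0078. Fdps, farnesyl pyrophosphate synthase, differed by −0.052 (interval −0.25 to 0.15). For both genes the interval without the block left out changes of 1.5-fold in either direction.

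Between squalene and cholesterol, 9 of 10 enzymes read higher in MCAO (median difference 0.18 log2), though 0 of 10 passed without the block and 1 with it. The median within the pairs was 0.20, 0.11 and 0.23, where all genes had 0.00052, −0.027 and 0.021. Sqle, squalene epoxidase, which adds the first oxygen and is a slow step of the pathway, read 8.61, 8.87 and 8.81 in MCAO against 8.33, 8.53 and 8.47 in sham. The groups did not overlap, and the lowest array of each was number 1. The difference was 0.32 ± 0.095 (SE, n = 3 per group), or 1.25-fold, and its adjusted p was 0.268, or 0.0187 in the blocked fit. Within the pairs it was 0.28, 0.34 and 0.34, and whichever array was left out it stayed between 0.27 and 0.40.

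Cyp51, the lanosterol 14-alpha-demethylase, read 8.48, 8.25 and 8.36 in MCAO and 8.16, 8.08 and 8.10 in sham. All MCAO values lay above sham, with MCAO 1 the highest, and the difference was 0.25 ± 0.082 (adjusted p = 0.341, and 0.0642 with the block). Its 2 dimmer probe sets read 0.089 and 0.081, so the mean of the 3 gave 0.14. Tm7sf2, a sterol C14-reductase that acts on the product of Cyp51, read 7.60, 7.47 and 7.54 in MCAO and 7.37, 7.25 and 7.37 in sham. Its lowest MCAO value stood above the highest sham value, and the difference was 0.21 ± 0.076 (adjusted p = 0.437, and 0.112 with the block).

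The other enzymes of this stretch had overlapping groups. Fdft1, squalene synthase, read 0.092 higher and Nsdhl, which takes part in removing the C4 methyl groups, 0.14. Hsd17b7, the 3-ketosteroid reductase of the same step, read 0.081 higher, Ebp, the sterol isomerase, 0.20 and Sc5d, the C5-desaturase, 0.19. None of these 5 passed in either fit. Fdft1 and Sc5d were higher in all 3 pairs, and Nsdhl, Hsd17b7 and Ebp in 2 of 3, each falling short in pair 2 (−0.14, −0.019 and −0.031). Lss, the cyclase that makes lanosterol and stands between Sqle and Cyp51 in the pathway, was the 1 enzyme with a negative difference, −0.075 (interval −0.37 to 0.22), and its other 2 probe sets read 0.12 and 0.019. Fdft1 and Hsd17b7, like Mvd, were read by probe sets of a type that can also bind similar transcripts.

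Dhcr7, the last reductase on the way to cholesterol, showed how strongly the sample number could outweigh surgery. It read 7.79, 8.70 and 8.78 in MCAO and 7.61, 8.54 and 8.61 in sham. The arrays numbered 1 stood about as low in one group as in the other, so the groups overlapped over most of their range, yet MCAO was higher by 0.17, 0.16 and 0.16 within the pairs. The difference of 0.17 had an SE of 0.33 without the block and 0.066 with it (adjusted p = 0.973, and 0.198 with the block). The smaller SE is the lowest that the moderated variance allowed here, since over all genes the blocked SE did not go below 0.066.

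**Figure D3:**
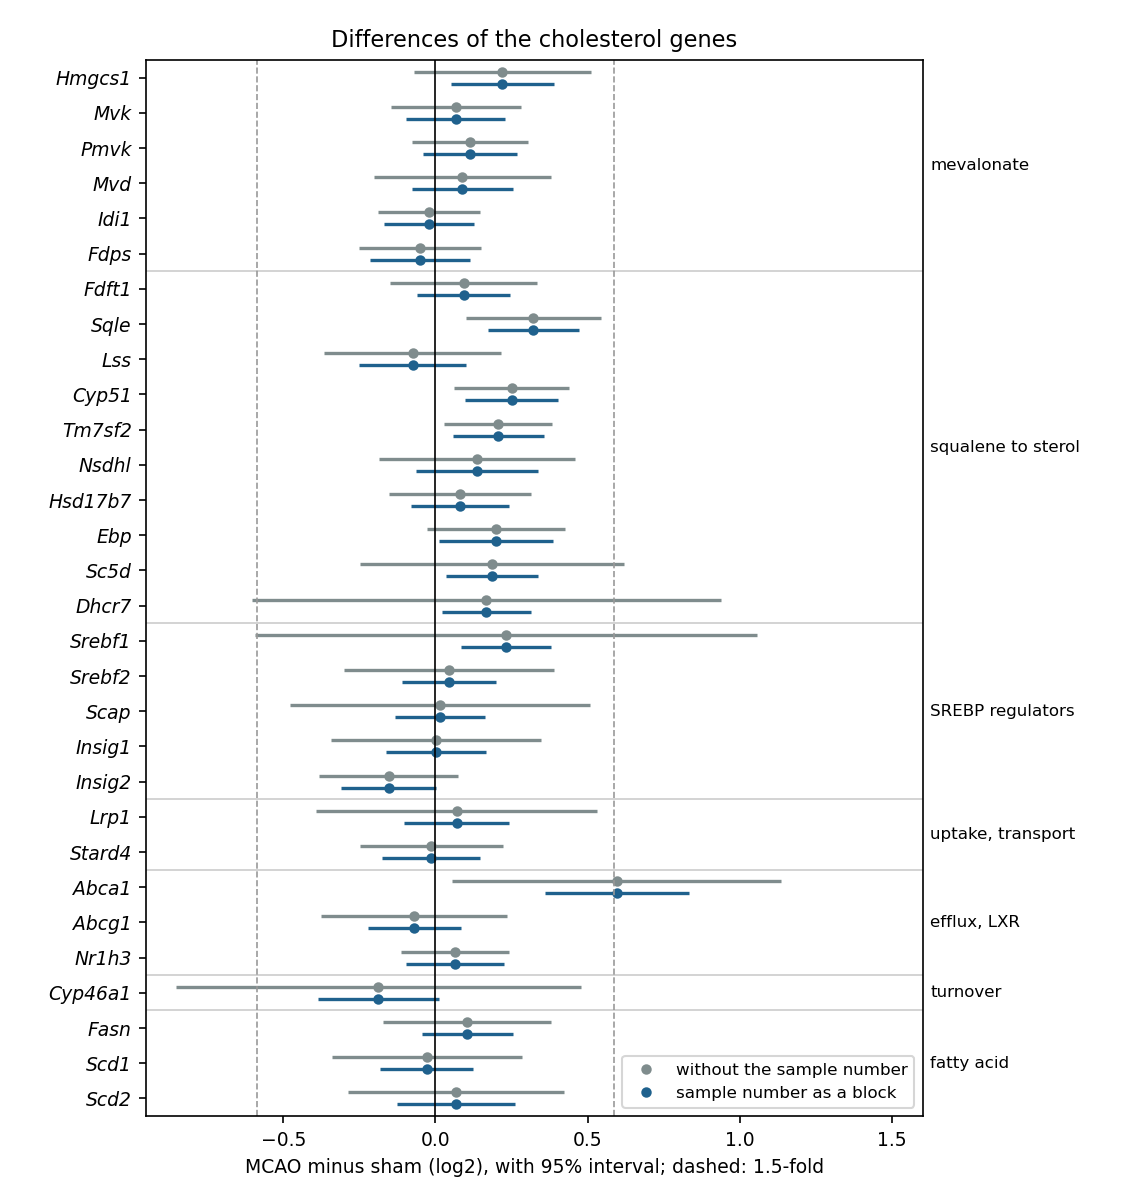
MCAO minus sham (horizontal axis, log2) for each cholesterol gene, as points with 95% intervals, without the sample number (grey) and with it as a block (blue); dashed lines mark 1.5-fold. With the block all intervals but that of Abca1 lie between the dashed lines, and those of Dhcr7 and Srebf1 shrink most.

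RefSeq promoters of GRCm38.p6 were matched by symbol for 23 of the 30 genes and searched over the 250 bases before the start site, because SREBP, its partner NF-Y and LXR are the known shared regulators of this pathway. Printed below are the promoters of Hmgcs1, which opens the measured pathway, and of Cyp51, Tm7sf2 and Abca1, whose groups did not overlap; no entry for Sqle was matched. Capitals mark matches to TCACNCCAC (a sterol regulatory element), CCAAT (the NF-Y box) or TGACC and TAACC with 5 bases between them (the LXR element type known from Abca1), each on either strand, so that ATTGG is CCAAT on the other strand; no matches overlapped in these promoters. The regions are chr13:119690101-119690350 on the plus strand for Hmgcs1 and, on the minus strand, chr5:4104698-4104947 for Cyp51, chr19:6067851-6068100 for Tm7sf2 and chr4:53159896-53160145 for Abca1.
Hmgcs1: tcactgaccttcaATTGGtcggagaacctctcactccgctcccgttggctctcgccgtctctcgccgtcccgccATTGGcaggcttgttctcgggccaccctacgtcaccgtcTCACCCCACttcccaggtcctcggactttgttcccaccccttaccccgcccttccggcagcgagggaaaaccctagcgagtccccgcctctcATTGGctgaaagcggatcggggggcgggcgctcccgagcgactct
Cyp51: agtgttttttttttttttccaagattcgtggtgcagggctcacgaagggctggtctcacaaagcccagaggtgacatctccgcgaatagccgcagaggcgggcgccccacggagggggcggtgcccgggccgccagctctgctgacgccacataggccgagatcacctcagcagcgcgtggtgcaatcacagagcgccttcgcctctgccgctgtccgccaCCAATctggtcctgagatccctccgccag
Tm7sf2: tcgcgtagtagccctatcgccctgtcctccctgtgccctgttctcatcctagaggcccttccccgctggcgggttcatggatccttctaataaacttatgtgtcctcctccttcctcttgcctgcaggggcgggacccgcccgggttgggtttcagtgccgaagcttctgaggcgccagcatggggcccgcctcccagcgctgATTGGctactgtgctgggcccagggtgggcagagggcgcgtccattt
Abca1: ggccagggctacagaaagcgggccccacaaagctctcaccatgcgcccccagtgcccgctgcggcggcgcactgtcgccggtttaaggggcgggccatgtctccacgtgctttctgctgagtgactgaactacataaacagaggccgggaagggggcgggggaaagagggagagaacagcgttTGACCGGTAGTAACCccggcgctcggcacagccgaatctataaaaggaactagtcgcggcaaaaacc

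CCAAT stood in the promoters of 19 of the 23 matched genes (82.6%, against 37.5% of all 27025 genes with a promoter entry), and TCACNCCAC in 1, Hmgcs1, at 137 to 129 bases before the start (4.35%, against 1.22%). The LXR-type element was found in 3 of the 23, Abca1, Srebf1 and Fasn, and in 12 of all genes (0.0444%); it was written down from the element known in Abca1, so that gene's match was given. The consensus repeat of AGGTCA with 4 bases between its copies was in 0 of the 23 and in 4 of all genes. A match is a string of letters, not a site known to be bound, and a gene with several promoter entries had more chances of one. Srebf1 had 3 entries, and the 1 with the LXR-type element belongs to a start site inside the gene's span. The 3 elements are printed for comparison, with 7 bases on each side, at chr4:53159941-53159969, chr11:60210632-60210660 and chr11:120824751-120824779, all on the minus strand.
Abca1: cagcgttTGACCGGTAGTAACCccggcgc
Srebf1: acgacagTGACCGCCAGTAACCccagcgc
Fasn: gccacgaTGACCGGTAGTAACCccgcctg

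Among the regulators of SREBP, 4 of 5 were higher in MCAO and 0 passed in either fit. Srebf1, which encodes the SREBP-1 factors that act mostly on fatty acid genes, read 8.48, 9.47 and 9.54 in MCAO and 8.25, 9.27 and 9.28 in sham. As with Dhcr7, the arrays numbered 1 were low in both groups and the ranges overlapped, but within the pairs MCAO was higher by 0.23, 0.20 and 0.27. The difference was 0.23 ± 0.35 (SE, n = 3 per group; adjusted p = 0.964), and 0.23 ± 0.067 with the block (adjusted p = 0.0764). Srebf2, for SREBP-2, the main activator of the cholesterol enzymes, differed by 0.045 (interval −0.30 to 0.39), and as a mean over its 2 probe sets by −0.076.

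Scap, the sterol-sensing escort of SREBP, read 8.95, 9.45 and 9.58 in MCAO and 8.91, 9.45 and 9.57 in sham. Same-numbered arrays were within 0.037, 0.0053 and 0.0052 of each other, and with the block the 95% interval ran from −0.13 to 0.16. Insig1, the retention protein that is itself an SREBP target, differed by 0.0033 (blocked interval −0.16 to 0.17) and had its lowest arrays at number 2 in both groups. Insig2, its paralog, was lower in all 3 pairs, by −0.27, −0.095 and −0.099, for a difference of −0.15 ± 0.099 (adjusted p = 0.818, and 0.276 with the block), and its other 2 probe sets read −0.095 and −0.18.

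Of the uptake and transport genes, neither passed. Lrp1, a large receptor that takes up lipoproteins and many other ligands, read 8.57, 8.92 and 9.02 in MCAO and 8.34, 8.86 and 9.10 in sham, a difference of 0.070 (interval −0.39 to 0.53). The groups overlapped and number 1 was the lowest array in each. Stard4, a soluble sterol carrier, differed by −0.013 (interval −0.25 to 0.22) and by 0.021 on the values as deposited.

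Abca1, which moves cholesterol and phospholipid to lipid-poor apolipoproteins, had the largest difference among the 30. It read 10.65, 9.77 and 9.79 log2 in MCAO and 9.68, 9.32 and 9.42 in sham. All MCAO values lay above sham, with MCAO 2 and 3 close above sham 1, and MCAO 1 far above the other 5 arrays. The difference was 0.60 ± 0.23 (SE, n = 3 per group), or 1.51-fold; the adjusted p was 0.485, and 0.00845 once the sample number was a block. The difference was 0.97, 0.45 and 0.37 within the pairs, 0.30 without MCAO 1 (adjusted p = 0.490) and 0.41 without both arrays numbered 1 (adjusted p = 0.129). The 2 dimmer probe sets read 0.46 and 0.41 higher.

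Abcg1, the exporter to high-density particles that LXR also controls, did not read higher in MCAO as Abca1 did. It read 9.04, 8.62 and 8.96 in MCAO and 9.04, 8.76 and 9.02 in sham, a difference of −0.070 with a 95% interval from −0.37 to 0.23 (−0.22 to 0.082 with the block). MCAO was lower in all 3 pairs, by −0.00044, −0.14 and −0.067, and the second probe set read −0.11. The difference between the 2 exporters was not tested. Their intervals without the block overlapped, 0.055 to 1.14 for Abca1 and −0.37 to 0.23 for Abcg1. Only with the block, 0.36 to 0.83 for Abca1 and −0.22 to 0.082 for Abcg1, did they not meet. Nr1h3, which encodes LXR-alpha, read between 6.25 and 6.45 on all arrays and differed by 0.064 (interval −0.11 to 0.24). In sham its probe set lay at the 28.0th percentile of all genes, the 1 of the 30 below their median. Without detection calls its level cannot be told from background, so the interval does not show an unchanged level.

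**Figure D4:**
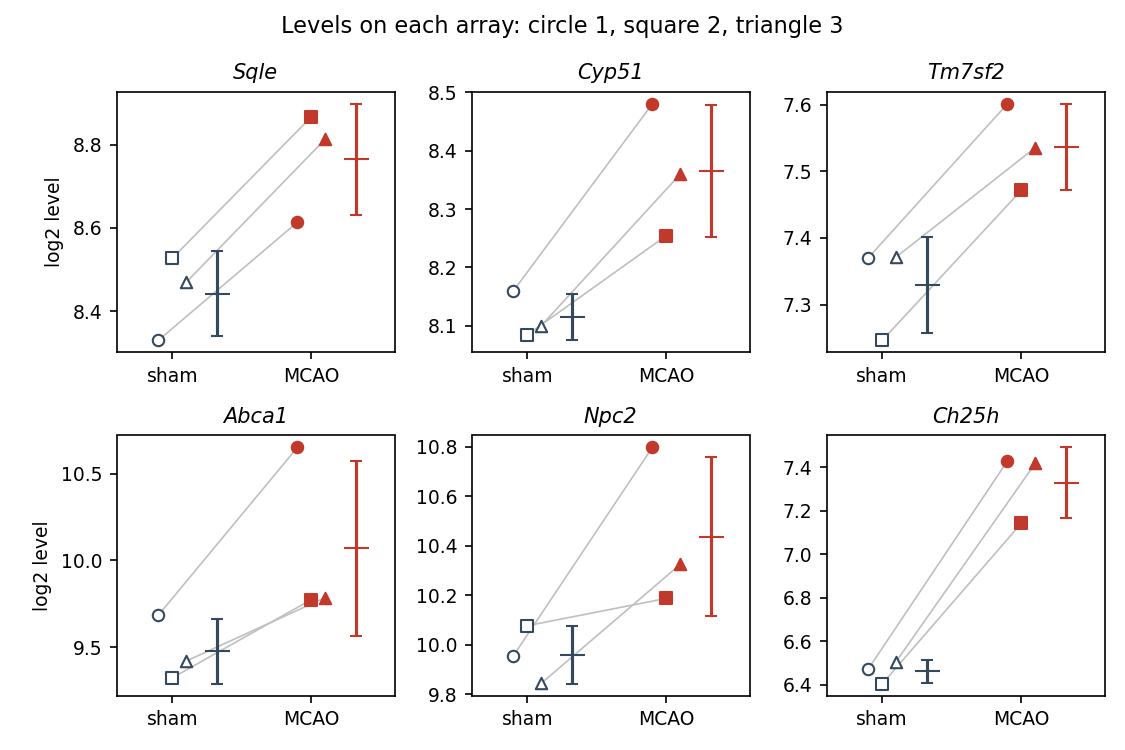
Log2 level of 6 genes on each array (vertical axes differ between panels); circles, squares and triangles are samples 1, 2 and 3, grey lines join equal numbers, and bars give the mean and SD of each group. MCAO lies above sham on every grey line. The gap is widest in sample 1 in every panel but that of Sqle, though only slightly for Tm7sf2 and Ch25h.

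Cyp46a1, the neuronal cholesterol 24-hydroxylase, had the most negative difference. It read 9.36, 9.77 and 10.05 in MCAO and 9.27, 10.11 and 10.36 in sham. The groups overlapped, MCAO was lower within pairs 2 and 3 (−0.34 and −0.31) and higher within pair 1 (0.085), and the difference was −0.19 ± 0.29 (adjusted p = 0.964, and 0.298 with the block). Leaving out sham 1 gave −0.51, leaving out MCAO 1 gave −0.0017 and leaving out sham 3 gave 0.035, so single arrays set its size. Beside it, all 11 measured neuron markers read lower in MCAO, with 0 past the threshold without the block and 1 with it, and their summed level was 14.847 to 15.017 log2 in MCAO and 15.095 to 15.239 in sham, with Penk and Snap25, of highest level among them, at −0.17 and −0.24; the part of neuron content in the Cyp46a1 value was not tested.

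The fatty acid enzymes that SREBP-1 drives showed no difference beyond the spread. Fasn, fatty acid synthase, was higher in all 3 pairs by 0.16, 0.058 and 0.098, for a difference of 0.10 ± 0.12 (adjusted p = 0.942, and 0.471 with the block). Scd1 and Scd2, the stearoyl-CoA desaturases that make oleate, differed by −0.028 (interval −0.34 to 0.28) and 0.067 (interval −0.29 to 0.42). Scd2 read 12.52, 12.16 and 12.44 in MCAO and 12.24, 12.07 and 12.60 in sham. Number 1 was the lowest array in each group for 11 of the 30 genes (36.7%, against 26.3% of all genes). Number 2 was the lowest in each group for 9 of the 30 (30%, against 12.4% of all genes). These 9 were Scd2, Scd1, Insig1, Stard4, Abca1, Abcg1, Lss, Cyp51 and Tm7sf2. Some margins were small, as for Lss, at 7.3169 on MCAO 2 and 7.3171 on MCAO 3. Markers of mature oligodendrocytes also had their lowest summed level on the arrays numbered 2, at 13.8 log2 in MCAO and 13.9 in sham. The other 4 arrays read 14.2 to 14.7. This was not particular to them. The summed levels of astrocyte markers (14.345 in MCAO and 14.114 in sham) and of oligodendrocyte precursor markers (12.393 and 12.462) were lowest there too. Those of neuroblast and progenitor markers and of ependymal markers were highest there in both groups. Of the mature oligodendrocyte markers 0 of 10 passed between MCAO and sham (Cnp and Mobp, of highest level among them, at −0.17 and −0.091). The part of oligodendrocyte or other cell content in the values of the cholesterol genes was not tested.

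A split of each gene's sum of squares over the 6 arrays put numbers on this. The share lying between MCAO and sham had a median of 10.9% over the 30 genes, and the share lying between sample numbers one of 77.7%; over all genes the medians were 13.5% and 52.0%. The sample numbers form more classes than the surgery groups, so their share tends to be the larger even in values without any pattern. The shares are given without correction for this. The share between numbers was the larger for 24 of the 30 genes (80.0%, against 73.5% of all genes). It reached 99.8% for Scap and 96.7% for Dhcr7, while surgery took 77.4% for Tm7sf2, 76.6% for Cyp51 and 73.6% for Sqle. The mean of the 2 arrays numbered 1 stood below that of the other 4 by −1.03 log2 for Srebf1, −0.96 for Dhcr7, −0.76 for Cyp46a1, −0.59 for Scap, −0.52 for Lrp1 and −0.39 for Srebf2, and above it by 0.59 for Abca1 and 0.51 for Sc5d. On the same arrays the poly-A controls, RNA added before labelling, read a mean of 7.69 and 7.96 log2, against 8.65 to 9.23 on the other 4; their part in these differences was not tested.

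**Figure D5:**
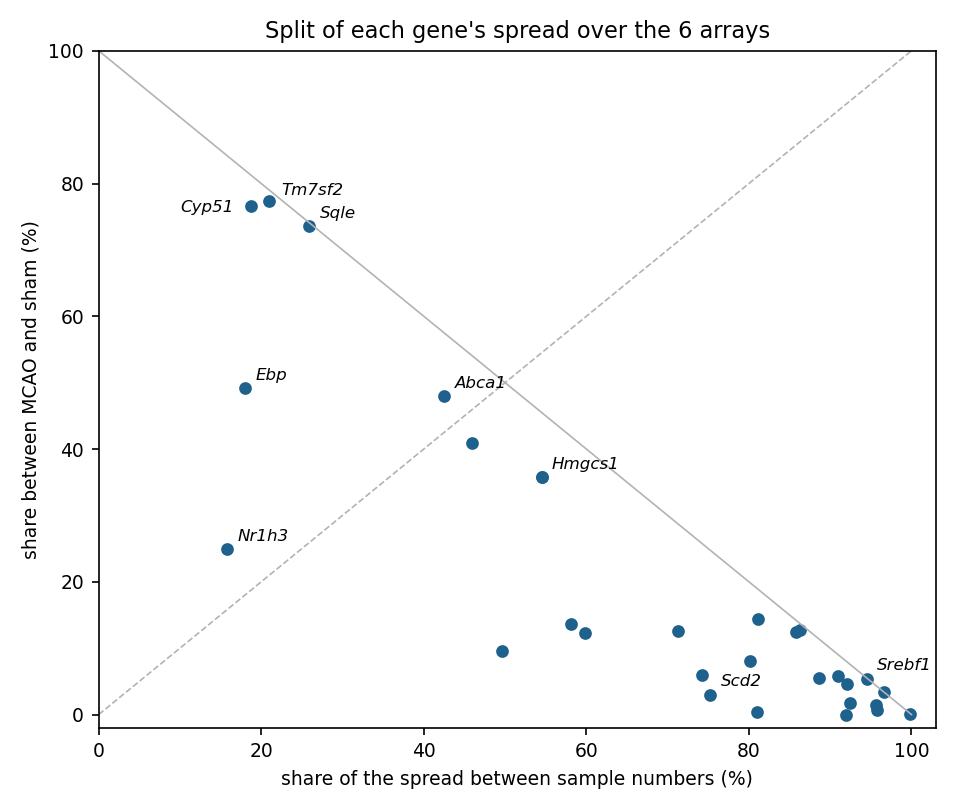
For each of the 30 cholesterol genes, the share of its sum of squares over 6 arrays that lay between sample numbers (horizontal axis, %) and between MCAO and sham (vertical axis, %); the solid line marks a total of 100% and the dashed line equal shares. Of the 30 genes 24 lie below the dashed line, and Tm7sf2, Cyp51 and Sqle lie highest. The dashed line makes no allowance for the sample numbers forming more classes than the surgery groups.

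Other genes of sterol and fatty acid handling were described from a list of 31, of which 30 were measured. Of these 17 were higher and 13 lower in MCAO (median 0.021 log2), where 47.7% of all genes were higher. Without the block 1 rose and 0 fell, against 1.12% and 0.0165% of all genes. With it 2 rose (6.67%, against 4.82% of all genes) and 0 fell (against 1.3%). The gene that rose in both fits was Ch25h, the cholesterol 25-hydroxylase that makes the LXR ligand 25-hydroxycholesterol. It read 7.43, 7.14 and 7.42 in MCAO and 6.47, 6.41 and 6.51 in sham. The groups stood far apart. In sham its probe set lay at the 31.9th percentile of all genes, below the median gene, and without detection calls its sham level cannot be told from background. It had a difference of 0.87 ± 0.096 (SE, n = 3 per group), or 1.83-fold (adjusted p = 0.00834), and without sham 3 it was 0.89 (adjusted p = 0.0586).

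Npc2, the soluble carrier that takes cholesterol out of lysosomes, read 10.80, 10.19 and 10.33 in MCAO and 9.96, 10.08 and 9.84 in sham. All MCAO values lay above sham, again with MCAO 1 the highest. The difference was 0.48 ± 0.16 (adjusted p = 0.340, and 0.0365 with the block), 0.30 without MCAO 1, and 0.25 as a mean over its 4 probe sets. Osbp, an oxysterol-binding carrier at membrane contacts, was the 1 of these 30 genes whose MCAO values (8.97, 8.82 and 9.06) all lay below sham (9.24, 9.16 and 9.23). Its difference was −0.26 ± 0.084 (adjusted p = 0.327, and 0.0552 with the block). Of all genes 5.37% had all MCAO values below sham. All MCAO values lay above sham for 7 of the 30, Npc2 and Ch25h among them (23.3%, against 8.43% of all genes).

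Markers of other cells were read beside these genes. Of 12 phagocyte markers 9 rose without the block and 12 with it, and their summed level was 13.3 to 13.8 log2 in MCAO and 12.5 to 12.6 in sham. It was highest on MCAO 1, the array on which Abca1 and Npc2 were highest too. The summed astrocyte level was also highest on that array (14.531 log2). Ch25h read nearly the same on MCAO 1 and MCAO 3 (7.43 and 7.42). Its lowest MCAO value was on MCAO 2 (7.14), as was that of the phagocyte sum. In sham, Abca1 was highest on sham 1 (9.68), where the phagocyte sum was lowest (12.497) and the astrocyte sum highest (14.309). Npc2 was highest on sham 2 (10.08). Csf1r and Ctss, the 2 phagocyte markers of highest level, read 0.65 and 0.69 higher (adjusted p = 0.341 and 0.224, and 0.0134 and 0.0159 with the block). Abca1, Npc2 and Ch25h are expressed by phagocytes as well as by glia, and the part of phagocyte content in their values was not tested. Of 9 astrocyte markers 2 rose without the block and 4 with it, with summed levels of 14.3 to 14.5 in MCAO and 14.1 to 14.3 in sham. Astrocyte markers thus differed among themselves: 6 of the 9 read higher in MCAO and 3 lower. Aqp4, the water channel of astrocyte endfeet, rose by 0.97 and Aldh1l1, a folate enzyme, by 0.89 in both fits. Gfap, the intermediate filament of reactive astrocytes, read 2.69 higher and Slc1a3, a glutamate transporter, 0.44 higher, and both passed only with the block (adjusted p = 0.140 and 0.697, and 5.64e-07 and 0.0101 with the block). Aldoc and Slc1a2, of highest level in the list, read −0.041 and −0.28 and did not pass. The part of astrocyte content or state in the values of the cholesterol genes was not tested. In sham 6 of 6 measured markers of neuroblasts and progenitors, 5 of 6 ependymal markers and 10 of 11 neuron markers lay above the median of all genes, and 1 of 5 choroid plexus markers did. Between the groups, 6 of 6 neuroblast and progenitor markers and 6 of 6 ependymal markers read higher in MCAO, and 0 passed without the block. With it Cd24a, a surface protein of neuroblasts and ependymal cells, passed (0.66 higher, adjusted p = 0.00465) and the other 11 did not. None of 8 markers of oligodendrocyte precursors and none of 5 endothelial markers passed in either fit. The values come without detection calls, so no marker can be called absent.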

How the data were processed

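The authors deposited 1 log2 expression value per probe set and array (45101 probe sets, 64 of them controls, which were left out of genes). How they corrected background, summarised probes and normalised is not given in the sources used here; a logarithm that compresses low values cannot be told from a plain one. Array medians lay between 6.57 and 6.59 but 90th percentiles between 8.85 and 9.06, so arrays were quantile-normalised. Probe sets were named from the platform's annotation: 34945 had 1 symbol, 932 several and 9160 none. One probe set per gene left 18193 genes, tested with limma 3.58.1 in R 4.3.3 (lmFit, eBayes, 2-sided, Benjamini-Hochberg, threshold 0.05), which was also tested on simulated data. Arrays correlated at 0.975 to 0.992 across genes; their number limits the precision.

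The main comparison has no block. Same-numbered arrays deviated together in all 3 pairs (correlations 0.77, 0.44 and 0.48 across genes), so the numbers were taken to pair the samples. MCAO 3 with sham 2 gave 0.29 and MCAO 2 with sham 3 gave 0.027, so the pairing of numbers 2 and 3 is less clear than that of number 1. Blocked values are given where they change a call. The members and lists were chosen with earlier results of these data known. Named were all measured members, the other pathway genes past the threshold or with the 3 smallest p, and, in marker lists that a result touched, the 2 of highest level and those past the threshold that a sentence needed. Of 76 marker entries in 9 lists 72 were measured. In all, 16 alternative settings were tried.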

Additional observations from a re-analysis of the deposited data

How the results depend on the processing

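The count of cholesterol genes past the threshold was 0 in both directions under every setting run except the replicate block, which gave 2 higher, also 2 on the values as deposited; pairing the samples by number thus changed the calls of Abca1 and Sqle, of Npc2 among the other pathway genes, and of the named markers Csf1r, Ctss, Gfap, Slc1a3 and Cd24a. Other pathway genes past the threshold numbered 1 higher, 2 with the replicate block and 2 with it on the values as deposited, and 0 to 1 when single arrays were left out, as Ch25h lost its call without sham 3. Most sign changes were of genes near 0. On the values as deposited, with or without the block, Idi1 read 0.0078, Stard4 0.021 and Scd1 0.0028; with arrays shifted to a common median Stard4 read 0.011. As means over all their probe sets, Lss read 0.021, Srebf2 −0.076, Scap −0.022 and Scd1 0.047. Without both arrays numbered 1, Lrp1 read −0.0077, Stard4 0.023 and Scd2 −0.039. Leaving out 1 array at a time gave ranges of −0.045 to 0.014 for Idi1, −0.15 to 0.48 for Dhcr7, −0.11 to 0.57 for Srebf1, −0.070 to 0.19 for Srebf2, −0.18 to 0.21 for Scap, −0.16 to 0.10 for Insig1, −0.14 to 0.24 for Lrp1, −0.10 to 0.065 for Stard4, −0.16 to 0.057 for Abcg1, −0.51 to 0.035 for Cyp46a1, −0.0031 to 0.19 for Fasn, −0.13 to 0.094 for Scd1 and −0.050 to 0.22 for Scd2. For Idi1, Dhcr7, Srebf1, Srebf2, Scap and Fasn both ends of the range come from leaving out MCAO 1 or sham 1. In those settings 1 array numbered 1 stood without its partner. The cause of the sign changes was not tested.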
